A study of Mus musculus with 13 samples.

Results

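The 5 annotated transcripts Ftl2-ps, Gm12164, Mir692-1, Gm6394 and Gm3837, were read in every glomerular RNA library of mice with light chain deposition disease (LCDD) and were at or near 0 in the libraries of the other genotypes. They are 5 of the 46958 gene rows of the count table. They were chosen by that very pattern, so their levels in LCDD against the other genotypes are described here without a test, and all tests below concern genes that did not enter the choice. The name "on-off pseudogene" fits them unevenly: 4 are annotated as processed pseudogenes and Mir692-1 as a microRNA. Gm3837 held 5 to 21 counts per library outside LCDD, and within its annotated bases no single read differs from its source gene Pdcd5. Whether Gm3837 was off there thus cannot be told from the counts.

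The series measured RNA of kidney glomeruli, the capillary tufts that filter blood, purified with magnetic beads from 6-month-old mice of a mixed C57/BL6x129/SVxBALB/c background, which the labels give for all 3 genotypes. There were 4 libraries of kFRA (LCDD) mice, 4 of DH-LMP2A mice and 5 wild-type (WT) libraries. The series text describes each library as a pool of 3 mice, apart from WT replicates 3 to 5, which are single mice. Nothing says whether the pools are independent in other respects, so p-values measure the spread between these libraries. As background, LCDD is a disease in which a monoclonal immunoglobulin light chain is deposited along basement membranes. In the published model kFRA is a human kappa light chain gene placed in the mouse kappa locus, and DH-LMP2A is a modified heavy chain locus whose B cells make no heavy chain and whose plasma cells secrete light chains alone. The labels used here give only the genotype names, and do not state whether the kFRA libraries also carried the DH-LMP2A allele.

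Library totals ran from 16687509 to 30587890 counts, and 3 counts, the floor used below, corresponded to 0.097 to 0.185 CPM, read counts scaled to library size. Podocyte markers, which define the filtering cells of the glomerulus, summed to 7219 to 31275 CPM in LCDD, 16389 to 31887 in DH-LMP2A and 15181 to 34159 in WT, and none of the 10 was at 0. Mesangial markers summed to 3794 to 6757 CPM in LCDD, against 2992 to 3663 in DH-LMP2A and 3149 to 3736 in WT. Of the 8 mesangial markers, 1 was higher in LCDD than in DH-LMP2A by edgeR's quasi-likelihood test at an adjusted p under 0.05, where 2.00% of all genes were called, and 0 against WT. Against WT, where 1.84% of all genes were called, 1 of 10 podocyte markers and 2 of 8 B and plasma cell markers were lower in LCDD, with 0 against DH-LMP2A, and the lists for glomerular endothelium, parietal epithelium, tubule, red cells, macrophages and sex gave 0 in either comparison. The Y-linked gene Ddx3y ran from 208 to 2214 counts in LCDD, 435 to 2296 in DH-LMP2A and 0 to 197 in WT. The female marker Xist ran from 9 to 25354 counts in LCDD, 1026 to 17549 in DH-LMP2A and 9018 to 41308 in WT. The make-up by sex thus differed between WT and the others, and also between the libraries of LCDD. The part of these differences in the results below was not tested.

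A processed pseudogene is a copy of a messenger RNA that was reverse transcribed and inserted elsewhere in the genome, so it has no introns and usually no promoter of its own. Ftl1 encodes the light chain of ferritin, the shell of light and heavy (Fth1) chains in which cells store iron. Pdcd5 encodes a small protein linked to programmed cell death. Abundant messenger RNAs such as Ftl1 left many copies in the mouse genome, and short reads are hard to assign among copies that differ at few bases.

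Locations are on GRCm38 with GENCODE M21 annotation. Ftl2-ps is at chr4:125504288-125504839 on the plus strand, 552 bases long, inside an intron of Grik3 on the same strand, and its end overlaps the microRNA gene Mir692-2. Gm12164 is at chr11:45829319-45829869, plus strand, 551 bases, inside an intron of the noncoding gene F630206G17Rik and overlapping the predicted microRNA Gm22751. Mir692-1 is at chr17:6895229-6895337, minus strand, 109 bases, and overlaps no other gene. Gm6394 is at chr3:57717813-57718289, minus strand, 477 bases, and also overlaps none. Gm3837, which GENCODE calls Pdcd5-ps, is at chr1:189277443-189277823, minus strand, 381 bases, inside an intron of Kcnk2 on the same strand. The 5 thus lie on 5 different chromosomes, and the source genes Ftl1 and Pdcd5 both lie on chromosome 7.

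By sequence, 3 of the 5 belong to the ferritin light chain. Ftl2-ps was 98.7% identical to the Ftl1 coding sequence over all 552 bases and Gm12164 96.0%. Mir692-1 was 94.6% identical to Ftl1 over 111 aligned positions, so the annotated hairpin aligns with the end of the ferritin light chain coding sequence. The last 93 coding bases, stop codon included, are shown because they hold both the microRNA and the bases shared by all the copies. Capitals in a copy mark a difference from Ftl1, and capitals in Ftl1 mark the positions at which a copy differs.
Ftl1: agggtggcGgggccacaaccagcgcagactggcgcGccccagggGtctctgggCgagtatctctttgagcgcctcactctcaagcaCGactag
Ftl2-ps, chr4:125504747-125504839, plus: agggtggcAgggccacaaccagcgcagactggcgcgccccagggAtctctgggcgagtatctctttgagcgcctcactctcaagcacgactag
Gm12164, chr11:45829777-45829869, plus: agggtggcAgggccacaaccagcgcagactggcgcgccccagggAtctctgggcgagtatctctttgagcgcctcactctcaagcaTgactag
Mir692-1, chr17:6895245-6895337, minus: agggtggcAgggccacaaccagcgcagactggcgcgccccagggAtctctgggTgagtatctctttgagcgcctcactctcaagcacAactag
Gm15590, chr17:6131854-6131946, minus: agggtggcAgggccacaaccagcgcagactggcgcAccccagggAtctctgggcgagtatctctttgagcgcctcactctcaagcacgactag

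A difference is written as the base of the source gene, its coding position counted from 1 at the A of the start codon, and the base of the copy. G468A and G504A were in all 9 annotated ferritin sequences aligned, including copies read in every genotype such as Gm15590 and Gm10116 (Ftl1-ps1). The 9 are not separate copies: Mir692-2, Gm22774 and Gm26445 overlap the ends of Ftl2-ps, Gm15590 and Gm20746, and show the same bases. Ftl2-ps had 7 substitutions in all, A307C, T354C, G366C, A401T, T402C, G468A and G504A, and no gap. Gm12164 had 17 substitutions and 5 gap bases, and Mir692-1 had G468A, G504A, C513T and G547A with 2 gap bases. A307C, A401T and T402C were shared by Ftl2-ps, Gm12164 and 1 further copy, Gm20746 (Ftl1-ps2), and not by Gm15590 or Gm10116; the shorter copies do not reach these positions.

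Gm3837 matched the Pdcd5 coding sequence at all 381 bases with 0 substitutions. Its first 75 bases stand for the whole.
Gm3837, chr1:189277749-189277823, minus: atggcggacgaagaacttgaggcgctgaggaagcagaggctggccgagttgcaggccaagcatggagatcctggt

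These differences set how far a read can be assigned, since the libraries were read as pairs of 75 bases. Of the 403 windows of 75 bases in Gm6394, 0 were found in another annotated transcript, and of the 35 in Mir692-1 also 0. Gm12164 shared 191 of 477 windows with another transcript and 19 with Ftl1. Ftl2-ps shared 391 of 478, of which 232 were in Ftl1. Gm3837 shared all 307 of its windows with Pdcd5, so within the annotated bases no single read of it differs from Pdcd5. How the authors treated reads that match several places is not given in the sources used here, so the split between near-identical copies is uncertain, most of all for Gm3837.

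The mature microRNA annotated in Mir692-1, miR-692, is shown with its seed (bases 2 to 8) in capitals, from RefSeq on GRCm38.p6.
miR-692: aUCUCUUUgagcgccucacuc

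Mir692-1, Mir692-2 and Mir692-3 carry the same mature sequence and therefore the same seed. It also occurs, letter for letter, in the Ftl1, Ftl2-ps, Gm12164 and Gm15590 transcripts. The libraries were made from polyadenylated RNA, so the counts at Mir692-1 measure longer RNA across the hairpin, not the mature microRNA.

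Ftl2-ps was the most abundant of the 5. It had 2902, 2886, 2031 and 2881 counts in LCDD replicates 1 to 4, 3, 0, 0 and 2 in DH-LMP2A, and 2, 2, 2, 2 and 0 in WT. All 4 LCDD libraries were high and all 9 others were at or under the floor of 3 counts. Scaled for depth, the LCDD libraries held 111, 109, 109 and 114 CPM, a mean of 111 ± 2.23 (SD, n = 4). The spread between these libraries was 2.02% of the mean, and counting error alone at this depth gives 1.93%. Against the floor, Ftl2-ps was at least 838-fold higher than in DH-LMP2A and at least 841-fold higher than in WT.

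Gm12164, the second ferritin copy, had 987, 1235, 1002 and 1245 counts in LCDD. It had 7, 0, 5 and 5 counts in DH-LMP2A and 7, 4, 3, 6 and 3 in WT. The groups did not overlap, but most libraries outside LCDD held a few reads assigned to the copy. Whether these reads came from Gm12164 or from near-identical transcripts was not tested. Its LCDD mean was 46.8 ± 6.74 CPM (SD, n = 4), 243-fold the DH-LMP2A mean of 0.193 ± 0.131 (n = 4) and 238-fold the WT mean of 0.197 ± 0.0708 (n = 5).

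Mir692-1 had 200, 194, 167 and 167 counts in LCDD. DH-LMP2A had 0, 2, 0 and 1, and WT had 1, 2, 0, 0 and 3. All other libraries were again at or under the floor. The LCDD mean was 7.63 ± 1.01 CPM (n = 4), at least 57.8-fold above DH-LMP2A and at least 58.0-fold above WT.

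Gm6394 varied most within LCDD. Its counts there were 138, 270, 263 and 456, against 3, 3, 2 and 4 in DH-LMP2A and 2, 2, 7, 4 and 6 in WT. In CPM the LCDD libraries held 5.29, 10.2, 14.2 and 18.0, a mean of 11.9 ± 5.44 (n = 4). That spread was 45.7% of the mean, where counting error gives 5.96%. The mean was 92.2-fold that of DH-LMP2A and 66.8-fold that of WT.

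Gm3837, the Pdcd5 copy, had 104, 199, 117 and 201 counts in LCDD, 11, 5, 5 and 11 in DH-LMP2A, and 9, 11, 21, 15 and 11 in WT. Its groups did not overlap, and every library of every genotype held reads assigned to it, which may include reads of Pdcd5. The LCDD mean of 6.42 ± 1.76 CPM (n = 4) was 18.7-fold the DH-LMP2A mean and 11-fold the WT mean, the smallest ratios of the 5. Since these are bulk samples, more cells of a type and more RNA per cell cannot be told apart for any of the 5.

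**Figure D1:**
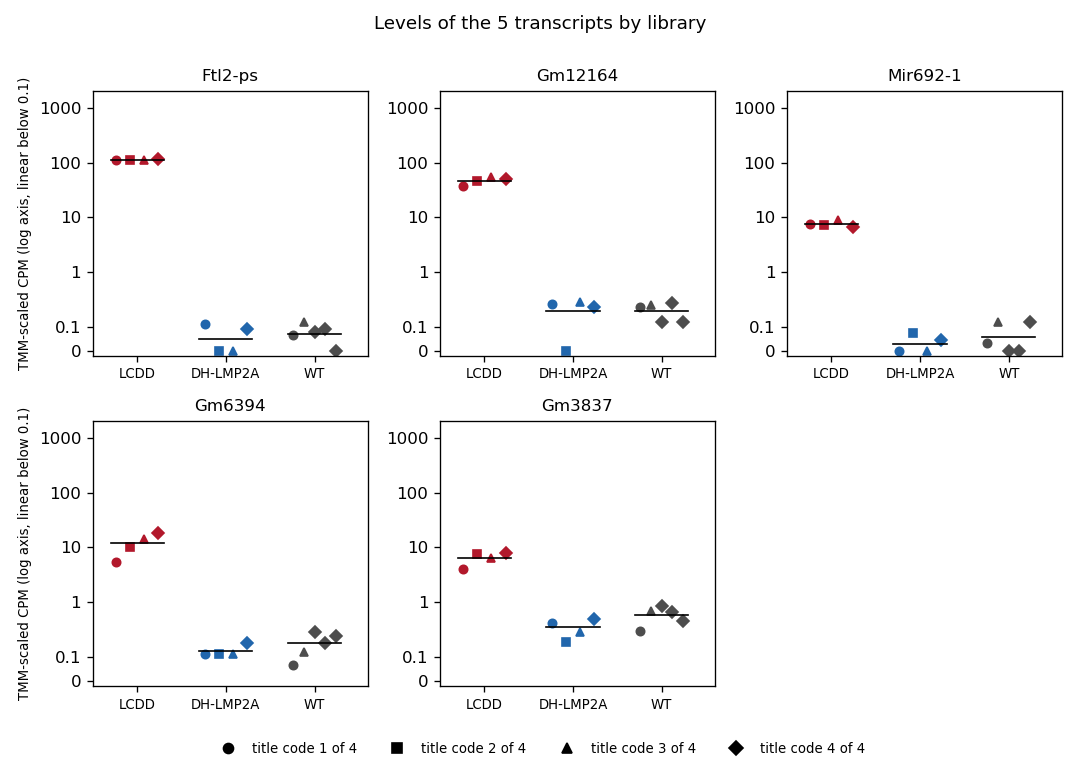
Depth-scaled CPM of the 5 transcripts (log axis, linear below 0.1) in each library of the 3 genotypes, with marker shapes for the 4 codes in the sample titles and a line at each group's mean. Every LCDD library lies above every other library for all 5. Ftl2-ps and Mir692-1 fall to 0 in several DH-LMP2A and WT libraries, whereas Gm3837 stays above 0 in all of them.

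Levels were set side by side per kilobase of transcript, with the limit that the share of each transcript that reads can tell from other copies differs, from none of Gm3837 to all of Gm6394 and Mir692-1. In LCDD the means were 201 ± 4.05 CPM per kb for Ftl2-ps, 85.0 ± 12.2 for Gm12164, 70.0 ± 9.26 for Mir692-1, 24.9 ± 11.4 for Gm6394 and 16.9 ± 4.63 for Gm3837 (SD, n = 4 each). Ftl2-ps had the highest value, whereas Gm12164 and Mir692-1 lay within about their combined spread, as did Gm6394 and Gm3837. For Mir692-1 the divisor was its annotated 109 bases, although its counts measure longer RNA across the hairpin. Its value per kb can therefore be too high, and in CPM its LCDD mean was 7.63 against 46.8 for Gm12164. Ftl1 itself was at 299 ± 170 CPM per kb in the same libraries (n = 4), with a spread that takes in the level of Ftl2-ps.

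A gene in which every LCDD library exceeds every library of both other genotypes was not rare: 261 of the 16738 genes tested did, 1.56%, and all 5 transcripts are among them by choice. The strict form of the pattern was rare. Of the 14825 genes with at least 10 counts in every LCDD library, 4 had at most 3 counts in every other library, 0.0270%. Of these, 2 were members, Ftl2-ps and Mir692-1, and the others were Slc6a16, a gene of the solute carrier family on chromosome 7, and BC018473 on chromosome 11. With a ceiling of 10 counts and a minimum of 30 there were 8 genes, and the 4 added were Gm12164, Gm6394, Gm20746 and Gm11744. Gm3837 met neither form, and no gene met the form with 0 counts elsewhere. The same rule gave 0 genes on in DH-LMP2A and 3 in WT (Cldn34c1, Gm15698 and 2210409E12Rik). Genes off in a genotype and on in all others numbered 0 for LCDD, 1 for DH-LMP2A and 0 for WT.

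Slc6a16 had 33, 47, 65 and 60 counts in LCDD, 0 in each DH-LMP2A library, and 1 count in a single WT library. BC018473 had 325, 235, 247 and 246 counts in LCDD and at most 3 elsewhere. By likeness of pattern, the genes with the highest Pearson correlation of log2 CPM with the mean of the 5 transcripts over the 13 libraries were Slc6a16 (r = 0.989), Tead2 (0.985), BC018473 (0.984), Gm20746 (0.969) and Mir692-2 (0.963). These correlations are a description of how the 3 genotypes separate. Tead2, a transcription factor of the TEAD family, was well read in every genotype: 100 to 157 CPM in LCDD, 32.2 to 40.8 in DH-LMP2A and 31.3 to 37.4 in WT.

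The other copies of the same source genes show how far the pattern extends. Sequence relatives of the 5, with at least 90% identity over at least 100 bases, had 23 rows in the table, of which 10 had enough counts to be tested, 9 had at most 3 counts in every library and 4 of those were at 0 throughout. Of the tested relatives, 3 are not independent of the 5 and are described without a test: Gm20746 and Gm22774 had 17 or fewer counts in every other library and so passed the count filter through LCDD, and Mir692-2 overlaps Ftl2-ps on the same strand. In the edgeR fit over all genes, where 1.30% of genes were called higher in LCDD in either comparison, 1 of the other 7, Gm15590, was higher in LCDD than in DH-LMP2A and than in WT. Between DH-LMP2A and WT, where 0.627% of genes were called, 0 of the 7 passed. The split of reads among such near-identical copies is uncertain, as for the 5.

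Gm20746, the full-length copy that shares A307C, A401T and T402C with Ftl2-ps and Gm12164, had the same pattern. It had 111, 213, 190 and 257 counts in LCDD, 2, 4, 0 and 0 in DH-LMP2A and 5, 2, 0, 4 and 4 in WT. The LCDD mean of 8.16 ± 2.79 CPM (n = 4) was 146-fold the DH-LMP2A mean and 65.1-fold the WT mean. Among the 5 full-length copies with more than 10 counts in any library, the 3 with the shared bases were the ones near 0 outside LCDD. This follows largely from the choice: Ftl2-ps and Gm12164 were chosen for that pattern, and all 3 passed the cut only through LCDD. The copies Gm5278 and Gm7541, near 0 in every genotype, fell under the cut, and their bases at these positions were not compared.

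Gm15590, a full-length copy with 5 substitutions that lacks those 3, was read in every genotype. It had 83.1, 78.7, 67.5 and 73.5 CPM in LCDD, 52.7, 19.4, 28.4 and 22.1 in DH-LMP2A, and 43.0, 37.4, 22.8, 23.3 and 30.8 in WT. The groups did not overlap. It was higher in LCDD by 1.30 ± 0.29 on the log2 scale than in DH-LMP2A (adjusted p = 0.0395, edgeR) and by 1.27 ± 0.27 than in WT (adjusted p = 0.0308, edgeR). The calls depended on the libraries. Leaving out a library gave adjusted p from 0.00325 to 0.137 against DH-LMP2A, where the call was lost without DH-LMP2A replicate 2, 3 or 4, LCDD replicate 1, 2 or 4, or WT replicate 2, 3 or 5. Against WT it gave 0.00552 to 0.116, with the call lost without LCDD replicate 1, 2 or 4 or WT replicate 3, 4 or 5, and without the 3 single-mouse WT libraries the difference was 0.87 (adjusted p = 0.609, edgeR).

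Gm10116, with only G468A and G504A and the copy closest to Ftl2-ps (99.1% identity), did not follow them. It had 110, 69.2, 49.7 and 44.8 CPM in LCDD, 104, 48.3, 46.4 and 47.4 in DH-LMP2A and 89.0, 67.7, 48.5, 49.7 and 60.4 in WT, ranges that overlap. Its log2 difference was 0.15 ± 0.33 against DH-LMP2A (adjusted p = 0.891, edgeR) and 0.12 ± 0.31 against WT (adjusted p = 0.955, edgeR), and its sign against WT depended on the libraries used.

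Mir692-2, at the end of Ftl2-ps, had 14.3, 26.4, 25.1 and 27.1 CPM in LCDD, 1.21 to 4.11 in DH-LMP2A and 1.76 to 3.64 in WT. The groups did not overlap, but reads from the end of Ftl2-ps can count towards it. Gm22774, a predicted microRNA that overlaps the end of Gm15590, had 51, 66, 44 and 50 counts in LCDD, 2 to 17 in DH-LMP2A and 4 to 8 in WT.

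**Figure D2:**
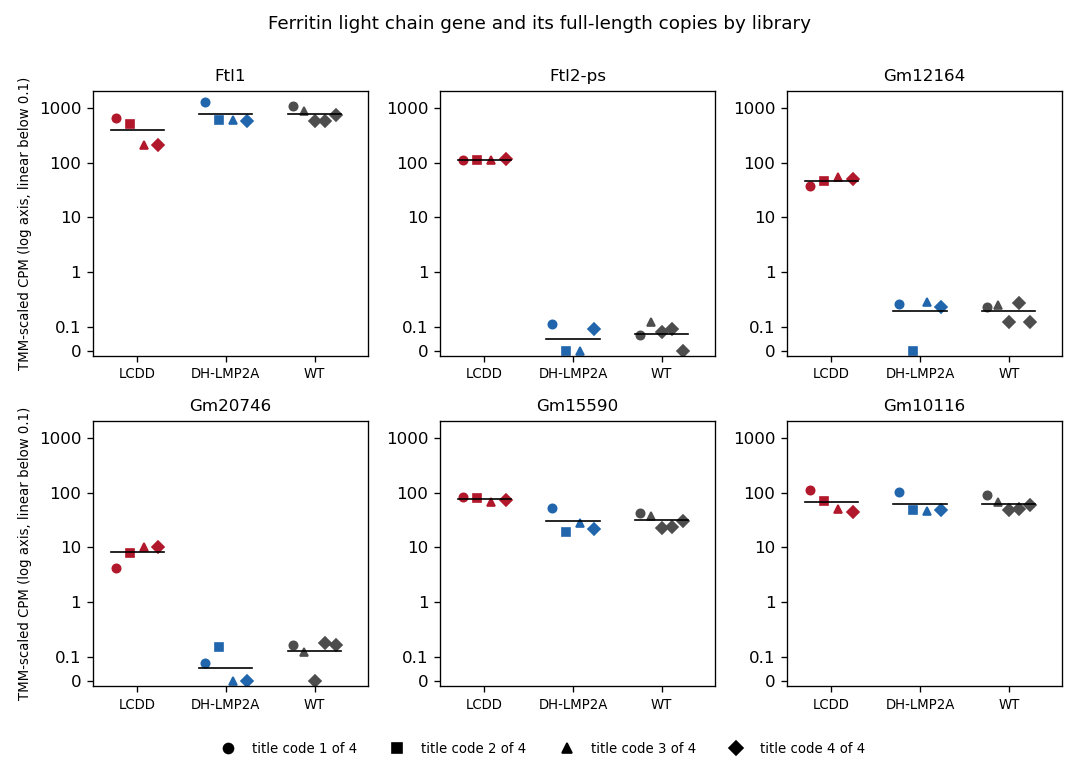
Depth-scaled CPM (log axis, linear below 0.1) of Ftl1 and its 5 full-length copies with more than 10 counts in any library, by library and genotype, with a line at each group's mean. Ftl2-ps, Gm12164 and Gm20746 are near 0 outside LCDD, Gm15590 is present in every library and higher in LCDD, and Gm10116 overlaps between genotypes.

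The source genes Ftl1 and Pdcd5 did not share the pattern. Ftl1 was at 665, 515, 213 and 207 CPM in LCDD, at 1280, 587, 593 and 565 in DH-LMP2A, and at 1083, 874, 574, 578 and 725 in WT. LCDD replicates 3 and 4 were the lowest of all 13 libraries, and replicate 1 lay within the range of the other genotypes. The log2 difference was -0.92 ± 0.40 (SE) against DH-LMP2A (adjusted p = 0.349, edgeR) and -0.94 ± 0.39 against WT (adjusted p = 0.333, edgeR), neither past the threshold. Between DH-LMP2A and WT it was -0.02 ± 0.38 (adjusted p = 0.991, edgeR).

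LCDD and DH-LMP2A libraries share 4 codes in their titles, whose meaning the labels do not give. Same-code libraries of these genotypes correlated in their deviations from the group means (0.153 to 0.593). Some pairs of different code did so as well, up to 0.524, so the pairing is uncertain. Within the 4 codes Ftl1 was lower in LCDD by -0.94, -0.19, -1.48 and -1.45 on the log2 scale, the same direction each time. With the code as a block the difference from DH-LMP2A was -1.0 (adjusted p = 0.0376, edgeR), past the threshold, in a fit that called 6.10% of all genes in place of 2.00%. Against WT, over the 3 codes both genotypes have, the differences were -0.70, -2.04 and -1.59.

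Fth1, the ferritin heavy chain, was at 472 to 807 CPM in LCDD, 589 to 1025 in DH-LMP2A and 564 to 888 in WT. Its log2 difference was -0.18 ± 0.23 (adjusted p = 0.807, edgeR) against DH-LMP2A and -0.03 ± 0.22 (adjusted p = 0.986) against WT. Pdcd5, the source of Gm3837, differed by -0.07 ± 0.12 (adjusted p = 0.873) and -0.08 ± 0.12 (adjusted p = 0.90, edgeR). Neither Fth1 nor Pdcd5 passed, and their ranges overlapped between genotypes.

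**Figure D3:**
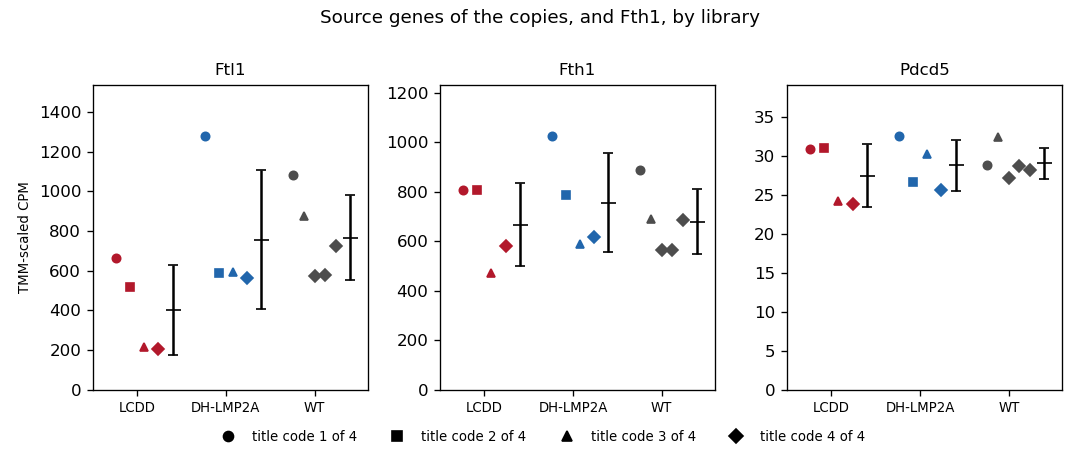
Depth-scaled CPM of Ftl1, Fth1 and Pdcd5 in each library (linear axes from 0), with the mean and SD of each genotype beside the points. Ftl1 is lowest in LCDD replicates 3 and 4, at 213 and 207 CPM, and Fth1 and Pdcd5 overlap between genotypes.

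Set against their source gene, the ferritin copies took a different share in each LCDD library. Ftl2-ps had 16.7, 21.1, 51.3 and 54.9 counts per 100 Ftl1 counts in LCDD replicates 1 to 4, and at most 0.0158 in the other genotypes. Gm12164 had 5.69, 9.02, 25.3 and 23.7 per 100 Ftl1 counts, and Mir692-1 had 1.15, 1.42, 4.22 and 3.18. The CPM of Ftl2-ps was nearly level, so its ratio moved with Ftl1, as the plot of the LCDD libraries shows. Gm12164 and Mir692-1 varied more themselves, from 37.8 to 53.9 CPM and from 6.58 to 8.99 CPM.

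Gm3837 had 12.9, 24.2, 26.1 and 33.2 per 100 Pdcd5 counts, against 0.694 to 1.92 in DH-LMP2A and 1.01 to 3.09 in WT.

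The copies read in every genotype also had more counts relative to Ftl1 in each LCDD library. Among these, Ftl1 was lowest in replicates 3 and 4 and within the range of the other genotypes in replicate 1. Gm10116 had 7.75 to 8.60 counts per 100 Ftl1 counts over the DH-LMP2A and WT libraries, a narrow range, and 13.4 to 23.3 in LCDD. Gm15590 had 3.30 to 4.79 per 100 in the other genotypes and 12.5 to 35.5 in LCDD. In both cases the ranges did not overlap, although the CPM of Gm10116 itself did.

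**Figure D4:**
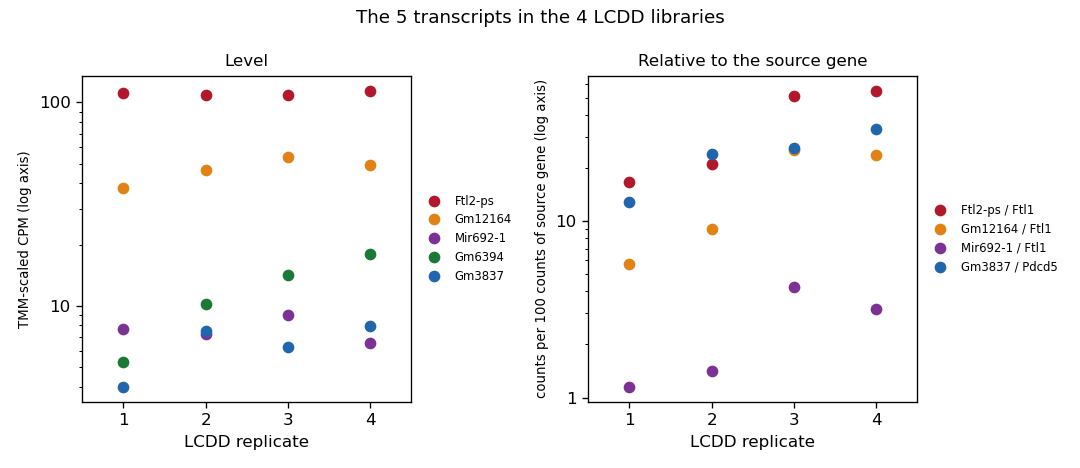
Depth-scaled CPM of the 5 transcripts (left) and counts per 100 counts of Ftl1 or Pdcd5 for the 4 copies of these genes (right) in the 4 LCDD libraries, both on log axes. Ftl2-ps stays at 109 to 114 CPM while its ratio to Ftl1 runs from 16.7 to 54.9, and Gm6394 runs from 5.29 to 18.0 CPM.

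Summed over Ftl1 and its relatives in the table, ferritin light chain reads were 743 ± 248 CPM in LCDD (SD, n = 4), 852 ± 394 in DH-LMP2A (n = 4) and 864 ± 241 in WT (n = 5), differences smaller than the spread. Of these counts, 35.8% to 61.2% lay outside Ftl1 in LCDD, 10.6% to 11.6% in DH-LMP2A and 11.1% to 11.6% in WT. The chosen members alone made up 15.1% to 31.9% of the family's counts in LCDD, so this difference follows in part from the choice. For Pdcd5 and its copy the share outside Pdcd5 was 11.4% to 24.9% in LCDD, 0.690% to 1.89% in DH-LMP2A and 0.997% to 3.00% in WT.

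The genes around the 5 transcripts were examined next. Grik3, a kainate receptor subunit whose intron holds Ftl2-ps on the same strand, had 0, 0, 2 and 0 counts in LCDD. It had 32, 22, 18 and 24 in DH-LMP2A and 0, 0, 21, 23 and 61 in WT, so the host gene was at or under the floor where Ftl2-ps was high. Its log2 difference from DH-LMP2A was -5.28 ± 1.49 (adjusted p = 0.0974, edgeR; with the title code as a block adjusted p = 0.0491) and from WT -5.05 ± 1.47 (adjusted p = 0.122). The other hosts were too low to test, with 0 or 1 count of F630206G17Rik and 0 to 6 of the potassium channel gene Kcnk2 in each library.

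Within 500 kb of the 5 loci, 36 other genes were tested. Against DH-LMP2A 2 were called, 5.56%, beside 2.00% of all genes: Mir692-2 and Cenpf, a centromere protein of dividing cells, near Gm3837. Mir692-2 shares bases with Ftl2-ps, so its call restates that member and is not read as a result. Without Mir692-2, 1 of 35 was called, 2.86%. With the title code as a block 4 were called, or 3 without Mir692-2, in the fit that called 6.10% of all genes. Against WT 3 were called, 8.33%, beside 1.84% of all genes: the same pair and Rsph3b, a radial spoke protein gene near Mir692-1. Without Mir692-2 this was 2 of 35, 5.71%. Cenpf was at 5.95 to 12.2 CPM in LCDD, 0.851 to 2.42 in DH-LMP2A and 1.13 to 2.86 in WT, with log2 differences of 2.50 ± 0.40 (adjusted p = 0.00722) and 2.29 ± 0.37 (adjusted p = 0.0066, edgeR). Rsph3b was lower in LCDD than in WT, with a log2 difference of -0.57 ± 0.12, at 10.9 ± 0.763 CPM (n = 4) against 16.2 ± 1.78 (n = 5; adjusted p = 0.0327, edgeR). The median log2 difference of the 36 was 0.02 against DH-LMP2A and 0.06 against WT, and that of all genes -0.01 and 0.01.

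The surroundings of the source genes on chromosome 7 were examined after the values were seen, because Slc6a16 and Tead2 lie there. Within 500 kb of Ftl1, 52 genes were tested. Against DH-LMP2A 4 were called, all higher in LCDD (7.69%, beside 2.00% of all genes; Cpt1c, Tead2, Slc6a16 and Ppfia3), and against WT 5, the same with Gm15545 (9.62%, beside 1.84%). Slc6a16 passed the count filter through LCDD, and without it and Tead2, for which the window was chosen, 2 of 50 and 3 of 50 were called. Around Pdcd5 1 of 13 was called against DH-LMP2A, Rhpn2, lower in LCDD, and 0 against WT.

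Genes of iron handling were taken as the pathway of the ferritin copies. Of 38 listed, 35 had a row and 33 were tested. Against DH-LMP2A 2 were called, beside 2.00% of all genes, both higher in LCDD: Cp, the ferroxidase ceruloplasmin, by 1.37 ± 0.23 on the log2 scale (adjusted p = 0.00922, edgeR), and Blvrb, a biliverdin reductase, by 0.94 ± 0.20 (adjusted p = 0.0279, edgeR). Cp was at 229 ± 62.7 CPM in LCDD, 88.4 ± 25.6 in DH-LMP2A (n = 4 each) and 178 ± 33.6 in WT (n = 5), and its log2 difference between DH-LMP2A and WT was -1.01 ± 0.22 (adjusted p = 0.0617, edgeR). Blvrb was at 38.2 ± 6.69, 19.9 ± 3.34 and 20.9 ± 5.24 CPM in the same order.

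Against WT, where 1.84% of all genes were called, Blvrb alone passed, higher by 0.88 ± 0.18 (adjusted p = 0.0275, edgeR), while Cp differed by 0.36 ± 0.21 (adjusted p = 0.585). Between DH-LMP2A and WT, where edgeR called 0.627% of all genes, 0 iron genes passed, with 4 at an unadjusted p under 0.05. DESeq2 called 3 (Cp, Slc25a37 and Nfs1), of 458 genes it called in all. Heph, a second ferroxidase, and Steap4, a metal reductase, had log2 differences of 0.98 ± 0.29 (adjusted p = 0.116) and 1.76 ± 0.56 (adjusted p = 0.149, edgeR) from DH-LMP2A that did not pass. With the title code as a block both passed (adjusted p = 0.00907 and 0.0409, edgeR), and 6 iron genes were called against DH-LMP2A, 4 higher and 2 lower (Ftl1 and Steap3), beside 6.10% of all genes. The counts were small and rested on single libraries: without DH-LMP2A replicate 2, 3 or 4 or LCDD replicate 1 or 2 the count against DH-LMP2A was 1, and without LCDD replicate 1 or 2 or WT replicate 3, 4 or 5 the count against WT was 0. The median log2 difference of the list was -0.04 and 0.02 in the 2 LCDD comparisons, beside -0.01 and 0.01 over all genes.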

How the data were processed

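RNA was extracted with the miRNeasy kit and sequenced from stranded poly(A) libraries, per the labels' protocols. The authors deposited a table of raw read counts per gene for 13 libraries (4 LCDD, 4 DH-LMP2A, 5 WT). The table also gives a length for each gene, in bases, used here for CPM per kb. Per the submitters' processing notes, STAR 2.4.0a, featureCounts of Subread 1.5.0-p3 and DESeq2 were used with mm10/GRCm38. The treatment of strand and of reads matching several places is not given in the sources used here. No column of per-sample values was left unmapped.

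The 5 members, the iron, marker and neighbour lists and the tests were chosen with earlier results of these data known.

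Counts were fitted with edgeR 4.0.16 (R 4.3.3; quasi-likelihood test, filterByExpr with a minimum count of 10, TMM scaling, all 13 libraries in 1 fit, Benjamini-Hochberg adjustment, threshold 0.05), which tested 16738 genes and left out 30220. CPM are TMM-scaled, and correlations used log2 CPM with a prior count of 2. Totals by library set the precision, and the floor covers counting error only. Same-genotype libraries differed beyond counting noise in all 22 pairs (chi-square per degree of freedom 12.6 to 233.9). On simulated counts, for LCDD against DH-LMP2A, 40.0% of 2-fold and 81.0% of 4-fold changes among 16738 genes were recovered, with 5 false calls. Against WT these were 41.0%, 84.0% and 4. The simulated libraries were independent, with a spread set by a gene's level alone. These figures therefore do not cover deviations that libraries share or spread particular to a gene.

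The codes in the titles were used as a replicate block in an alternative fit only, so the main p-values take no account of pairing. Same-code LCDD and DH-LMP2A libraries correlated in their deviations from the group means in all 4 pairs (0.153 to 0.593). The 12 pairs of different code ran from -0.599 to 0.524, so the pairing is uncertain. Same-code LCDD and WT libraries gave -0.165 to 0.400, so pairing is less clear there. Sequence relatives were found with blastn 2.17.0 in GENCODE M21 transcripts, where all 5 members had an identical span. Alternatives were DESeq2 1.42.0, RLE scaling, other count filters, 2 genotypes alone, other windows, ceilings and denominators, and leaving out libraries. Tests of single relatives under these were added after seeing the data. RLE scaling moved the median of all genes by at most 0.0345 (log2).

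Named were the members, Ftl1 and Fth1, the best sequence match of each member, up to 5 genes sharing the on-off pattern, the 5 genes most correlated with the members, up to 3 called neighbours per locus, the 4 iron genes with the smallest p in each comparison, and genes whose span holds a member. Other names were chosen after their values were seen. The promoter table held 0 of the members, so no promoter was examined. The source gene of Gm6394 and some sequences are not reported here.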

Additional observations from a re-analysis of the deposited data

Results flagged for a closer look

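In 31 groups of values, 4 held a library far from the others by Dixon's test, where chance flags about 1 group in 20, or 1.6 here. Ftl1 was at 1280 CPM in DH-LMP2A replicate 1, beside 565 to 593 in the other DH-LMP2A libraries. Its copy Gm10116 was at 104 CPM in the same library, beside 46.4 to 48.3. Mir692-2 was at 14.3 CPM in LCDD replicate 1, beside 25.1 to 27.1 in the other LCDD libraries. The total of LCDD replicate 3 was 18604929 counts, beside 25276687 to 26544422 in the others of its group, and Ftl2-ps was at 109 CPM there, like the rest.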

How the results depend on the processing

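Genes called between LCDD and DH-LMP2A (334) numbered 812 with DESeq2, 153 at a mean of at least 5 CPM, 213 with those genotypes alone, 1021 with the title code as a replicate block, and 113 to 484 with a library left out, lowest without DH-LMP2A replicate 2. Against WT (308) the same settings gave 726, 116, 185 and 536, with 54 without the 3 single-mouse WT libraries and 159 to 441 with a library left out. Between DH-LMP2A and WT (105) they were 458 with DESeq2, 54 at 5 CPM, 562 with the block, 69 without the single-mouse libraries and 29 to 407. Ftl1 was lower in LCDD under every alternative run, past the threshold only with the block, at -1.0 and -1.32. The latter is against WT, where same-code libraries did not all correlate positively in their deviations from the group means. Leaving out a library gave Ftl1 differences of -1.28 to -0.54 and -1.30 to -0.72, and between DH-LMP2A and WT -0.40 to 0.14, a change of sign. Gm10116 against WT turned to -0.08 with the block and -0.24 without the single-mouse libraries, and with a library left out ran from -0.21 to 0.28, and from -0.17 to 0.53 against DH-LMP2A. Iron genes called against DH-LMP2A were 4 with DESeq2, 6 with the block and 1 to 3 with a library left out, and against WT 2, 2 and 0 to 2. With the block, those called against WT were Ftl1 and Heph, without Blvrb (adjusted p = 0.0583, edgeR). With DESeq2 they were Blvrb and Steap4. Neighbours called against DH-LMP2A were 4 with DESeq2, 4 with the block, 1 within 200 kb, 4 within 1000 kb and 2 to 3 with a library left out, and against WT 5 with DESeq2, 6 within 1000 kb and 2 to 4. Mir692-2, which overlaps Ftl2-ps, is included in each of these neighbour counts. On-off genes were 0 with a ceiling of 0 counts, 8 with a ceiling of 10, and 4 to 5 with a library left out, Irgc1 joining without LCDD replicate 1 and Sh3gl3 without LCDD replicate 4. Ftl2-ps had a mean of 36.0 ± 19.9 counts per 100 Ftl1 counts in LCDD, 29.7 to 42.4 with a library left out, and 11.5 per 100 counts of Ftl1 and Fth1. The calls of Gm15590 were lost, in the same direction, in 20 fits over both comparisons, and the cause was not tested. They held against DH-LMP2A and WT with DESeq2 (adjusted p = 0.00186 and 0.00152). With the block they also held (adjusted p = 0.00523 and 0.0104, edgeR). Iron genes called between DH-LMP2A and WT were 3 with DESeq2 and 1, Slc25a37, with the block. A floor of 3 counts limits what can be said of the members outside LCDD.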
